A study of Mus musculus with 4 samples.

Results

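The 7 genes described here are *Glycam1*, *Madcam1*, *Chst4*, *Ltb*, *Lta*, *Ltbr* and *Cr2*. Some encode adhesion molecules of lymph node venules or, for *Chst4*, an enzyme that adds sulfate to their sugars. Others encode the lymphotoxin ligands and their receptor, and a complement receptor of B cells and follicular dendritic cells. All 7 were looked up by name among the 22483 loci with a gene name in a table of 30506 loci. Each was found as a single locus that carried no other gene name. Most were chosen by the measured difference between the genotypes compared here, so their values are a description and no test was made of them.
Poly(A) RNA came from mammary glands of 4 virgin mice at 2 months of age, all of a mixed 129SV, FVB/N and C57BL/6 strain. There were 2 *miR-21+/+* and 2 *miR-21-/-* mice. The *miR-21-/-* mice lacked the microRNA in every tissue from the germline onward, so its loss was not limited to any cell type. The deposited table gives a single FPKM value (sequenced fragments relative to transcript length and to library size) for each genotype, which combines its 2 mice. The spread between mice was therefore not visible, none of the differences below has a replicate check, and no p-value is given. The 2 columns summed to 759295 and 1175603 FPKM over all loci, but to 380567 and 355385 FPKM over named loci. Mature miR-21 is not measured by poly(A) libraries, and the locus of its host gene *Vmp1*, at 42.5 and 68.2 FPKM, does not check the deletion. Values are given for *miR-21+/+* first and *miR-21-/-* second throughout.

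High endothelial venules are the blood vessels of lymph nodes through which lymphocytes enter from the blood. Their endothelium carries sulfated and fucosylated sugars on mucin-like proteins, which lymphocytes recognize as they enter. Lymphotoxin made by lymphocytes acts on the lymphotoxin beta receptor of endothelium and stroma, signals through both arms of the NF-kappaB pathway, and is needed to form lymph nodes and to maintain these venules. The inguinal mammary fat pad of the mouse holds a lymph node, and the sources used here do not state whether it was removed. *Glycam1* has a second life in this organ, since the lactating epithelium secretes its product into milk.

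Promoter sequences are shown for matches to sites of NF-kappaB, which lymphotoxin signals activate, and of STAT factors, which prolactin and cytokines activate. All 7 had an entry among the 32851 RefSeq promoters of 300 bases (GRCm38.p6). Both strands were searched for a narrow form of the NF-kappaB site, GGGA followed by any pair of bases and TTCC, and for the STAT site TTCNNNGAA. The windows were then placed in mm9, the genome build of the expression table, where each matched once on its chromosome. Each is written in the direction of transcription with the match in capitals.
*Madcam1*, chr10:79127224-79127253, plus strand: aagccccctgGGAAAGTCCCacagagccgg
*Ltb*, chr17:35331355-35331384, plus strand: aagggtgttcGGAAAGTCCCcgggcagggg
*Glycam1*, chr15:103395638-103395667, minus strand: gccaactcatTTCCCAGAAacaccaattcc
*Ltb*, chr17:35331270-35331299, plus strand: ccttccccagTTCAGAGAAcccaggcatcc
*Lta*, chr17:35342429-35342458, minus strand: accatcactcTTCAGGGAAccaggcttcca
*Lta*, chr17:35342293-35342322, minus strand: ccgactccctTTCCCAGAAcgcagtagtct
*Madcam1* and *Ltb* held the same 10 bases, GGAAAGTCCC, which are the NF-kappaB form read from the other strand. They were centred about 65 bases upstream of the RefSeq start in *Madcam1* and about 82 bases upstream in *Ltb*. Of all promoters, 1.47% held this form. The STAT site was present once in *Glycam1* and *Ltb* and as 2 copies in *Lta*, and in 8.30% of all promoters. None of these matches overlapped another. Neither form was found in the windows of *Cr2*, *Ltbr* and *Chst4*. A match describes letters only, and binding was not measured here.

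The mature microRNA missing from the *miR-21-/-* mice is shown with its seed, bases 2 to 8, in capitals.
miR-21a-5p: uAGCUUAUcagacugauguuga
The complement of the seed, ATAAGCT, was searched in the annotated 3′ UTR of each member in mm9. It was found in *Cr2* alone, at chr1:196963593-196963600 on the minus strand, where the capitals mark the match with the A that follows it.
*Cr2*, chr1:196963582-196963611: tggtgagtcacATAAGCTAtgggggaaaat
This 3′ UTR is 3003 nt long. Of 3′ UTRs of 2500 to 3500 nt, 13.4% held the 7 bases and 3.68% held the 8 bases found in *Cr2*. *Cr2* RNA was lower in the glands without the microRNA, as given below.

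The genes differed widely in level. As FPKM values, which are scaled to transcript length and can be compared between genes, *Glycam1* was highest in *miR-21+/+* glands, followed by *Ltbr*, *Ltb*, *Cr2*, *Lta*, *Madcam1* and *Chst4*. In *miR-21-/-* glands the order was *Ltbr*, *Glycam1*, *Ltb*, *Madcam1*, *Lta*, *Cr2* and *Chst4*. Only 3 of the 7, *Glycam1*, *Ltb* and *Ltbr*, exceeded 5 FPKM in either genotype, and the other 4 stayed under 2 FPKM in both. Without the values of single mice, neighbours in these orders such as *Madcam1* and *Chst4* in *miR-21+/+* glands cannot be separated.
Of the 7 genes, 5 reached a mean of 1 FPKM over both genotypes. Among these, *Glycam1*, *Ltb* and *Cr2* (3 genes) were at least 2-fold lower in *miR-21-/-* glands, *Madcam1* (1 gene) was at least 2-fold higher, and *Ltbr* was neither. *Cr2* and *Madcam1*, with means of 1.04 and 1.07 FPKM, passed only through the genotype in which each was high. Of the 13305 named loci with that mean, 2.16% were at least 2-fold lower and 1.72% at least 2-fold higher. Since the members were chosen on this contrast, nothing is read from the comparison with these shares. Without the minimum, *Lta* and *Chst4* were also lower, which made 5 of 7, against 7.69% lower and 6.81% higher among the 19169 named loci above 0 in at least one genotype. The median log2 fold change of the 13305 loci was −0.03.

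**Figure D1:**
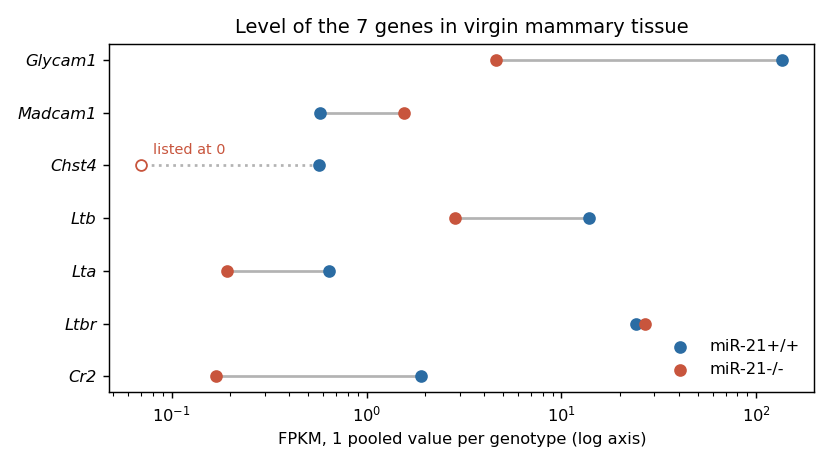
Level of the 7 genes, in FPKM on a log axis, with the single pooled value of *miR-21+/+* glands in blue and of *miR-21-/-* glands in red. *Glycam1*, *Ltb*, *Lta* and *Cr2* lie further left in red, *Madcam1* lies further right in red, and the open circle stands for *Chst4*, which is listed at 0 and has no place on this axis.

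**Figure D2:**
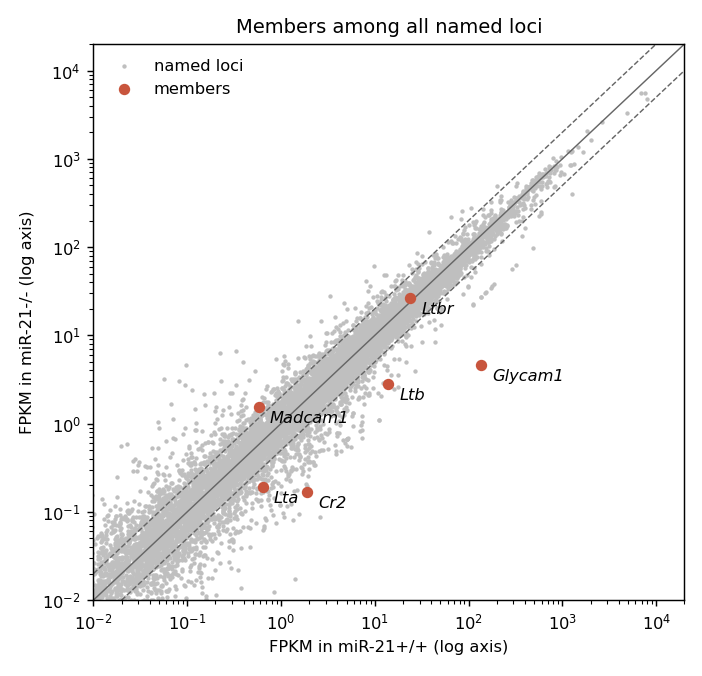
FPKM in *miR-21-/-* against FPKM in *miR-21+/+* glands for named loci above 0 in both (grey; values under the axis limits are not shown) and for 6 members (red), on log axes. The solid line marks equal values and the dashed lines a 2-fold difference, and *Glycam1* lies far below them at 136 against 4.63 FPKM.

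*Glycam1* encodes a secreted mucin-like glycoprotein of these venules and lies on chromosome 15 from 103392555 to 103395554, on the minus strand, with 4 exons and 151 codons in GENCODE. Its level was 136 FPKM in *miR-21+/+* and 4.63 FPKM in *miR-21-/-* glands. The ratio was 29.4-fold, a log2 fold change of −4.88. Among the 13305 loci, 3 had a lower ratio. In *miR-21+/+* glands it stood above 98.3% of all named loci, and in *miR-21-/-* glands above 57.0%. In bulk tissue, fewer cells of a type and less RNA per cell cannot be told apart, and this holds for every value below.
Because *Glycam1* is also a milk gene, the other milk genes were set beside it. Of 11 that reached a mean of 1 FPKM, 3 were at least 2-fold lower in *miR-21-/-* glands and 0 at least 2-fold higher, with a median log2 fold change of −0.13. With equal sums over named loci, 2 were lower, while 4 were lower with equal sums over all loci and 4 without the minimum. The 3 lower as deposited, of which *Csn2* and *Wap* were named after their values were seen, encode proteins of the milk itself. *Csn1s2b*, a casein under the minimum and named after its values were seen, was lower too, at 0.42 and 0.152 FPKM (−1.46). Other genes of such proteins that reached the mean of 1 FPKM were not 2-fold lower. Among these, also named after their values were seen, *Csn1s1* was higher at 8.33 and 11.7 FPKM (0.49). *Lalba* was at 1.47 and 0.996 FPKM (−0.57). *Csn1s2a*, a casein, was at 13.3 and 4.44 FPKM (log2 fold change −1.59). *Wap*, the whey acidic protein, was at 7.09 and 2.54 FPKM (−1.48), and *Csn2*, beta-casein, at 14.8 and 7.21 FPKM (−1.04). *Csn3*, kappa-casein, had the highest level of the caseins, 73.2 FPKM in *miR-21+/+* and 79.0 FPKM in *miR-21-/-* glands. *Glycam1* was thus 1.86 times the level of *Csn3* in one genotype and 0.0586 times in the other. No milk gene on the list had a log2 fold change as low as that of *Glycam1*. Of 11 mammary epithelial markers, 0 differed by 2-fold, and their median log2 fold change was 0.52, with *Krt18* at 148 and 216 FPKM.

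*Madcam1*, the mucosal addressin that binds the integrin of the *Itga4* and *Itgb7* chains, lies on chromosome 10 from 79127319 to 79131281, on the plus strand, with 5 exons. Its level was 0.576 FPKM in *miR-21+/+* and 1.56 FPKM in *miR-21-/-* glands, a log2 fold change of 1.44. It was the only member with a 2-fold higher value in *miR-21-/-* glands, and both values were low. On the log2(FPKM + 1) scale the difference was 0.70, and with both columns scaled to equal sums over all loci it was 0.81.
*Chst4* encodes a sulfotransferase that adds sulfate to the sugars of addressins and lies on chromosome 8 from 112552975 to 112563234, on the minus strand, with 2 exons. It was at 0.571 FPKM in *miR-21+/+* glands and listed at 0 in *miR-21-/-* glands, so no ratio is given. Of 389 named loci between 0.5 and 0.65 FPKM in *miR-21+/+* glands, 11 were listed at 0 in the other genotype. The 5 housekeeping genes looked up (*Actb*, *Gapdh*, *Rplp0*, *Hprt* and *Tbp*) were above 0 in both, which says nothing about a 0 for a gene as low as *Chst4*.
Other genes for addressins and for the enzymes that build their sugars were described as a group. Of 9 with a mean of 1 FPKM, 1 was at least 2-fold lower and 0 at least 2-fold higher, and the median log2 fold change was −0.18. With both columns scaled to equal sums over all loci, 3 were lower. The lower one as deposited was *St3gal6*, a sialyltransferase, at 46.3 and 20.5 FPKM (−1.17). *Chst2*, a sulfotransferase that acts with *Chst4* in these venules, was at 3.93 and 2.15 FPKM (−0.87). *Fut7*, a fucosyltransferase of the same sugars, was under the minimum, at 0.675 and 0.217 FPKM (−1.64). *Cd34*, *Podxl* and *Emcn*, sialomucins that blood vessels carry more widely, had log2 fold changes between −0.18 and 0.21.
General markers of blood vessels were set beside these genes. Of 11 such markers 0 differed by 2-fold, with a median of −0.05 and a summed level of 235 FPKM in *miR-21+/+* and 230 FPKM in *miR-21-/-* glands. *Pecam1* was at 39.7 and 43.7 FPKM and *Cdh5*, the endothelial cadherin, at 43.8 and 47.3 FPKM. The lowest of the 11 was *Ets1*, at 25.1 and 16.8 FPKM (−0.58). Of 6 adhesion molecules of venules and stroma, 1 was at least 2-fold higher and 0 lower. This was *Selp*, the P-selectin of activated endothelium and platelets, at 1.39 and 3.08 FPKM (1.15). Its difference had the direction of that of *Madcam1*, and it was under 2-fold with equal sums over all loci or with a pseudocount of 1 FPKM. Without the minimum, 2 genes of this list were at least 2-fold higher and 0 lower. The other was *Sele*, named after its values were seen, at 0.36 and 0.759 FPKM (1.08).

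*Ltb* and *Lta* encode the lymphotoxin chains. Lymphotoxin-beta is a membrane protein that holds lymphotoxin-alpha at the cell surface in the complex that binds *Ltbr*. *Ltb* (chromosome 17, 35331431 to 35333250, plus strand, 3 exons) was at 13.9 FPKM in *miR-21+/+* and 2.83 FPKM in *miR-21-/-* glands. The ratio was 4.90-fold, a log2 fold change of −2.29, and 68 of the 13305 loci had a lower one. *Lta* (chromosome 17, 35340110 to 35342323, minus strand, 4 exons) was at 0.640 and 0.192 FPKM, a log2 fold change of −1.73, which was −0.46 on the log2(FPKM + 1) scale. *Lta* lay under the mean of 1 FPKM in both genotypes. The level of *Ltb* was 21.7 times that of *Lta* in *miR-21+/+* and 14.7 times in *miR-21-/-* glands.
The pair lie within 10893 bases of chromosome 17 together with *Tnf*, the related cytokine whose gene sits between them, from 35336336 to 35338941. *Tnf* was at 0.790 FPKM in *miR-21+/+* and 0.833 FPKM in *miR-21-/-* glands, a log2 fold change of 0.08. The nearest loci outside this cluster with a mean of 1 FPKM were near 0 as well, with *Aif1* and *Lst1* as a merged locus at −0.13 and *Atp6v1g2* at 0.05. Within 500 kb of *Ltb*, the 41 other loci with that mean had a median of −0.02, of which 0 were 2-fold lower and 3 at least 2-fold higher.

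**Figure D3:**
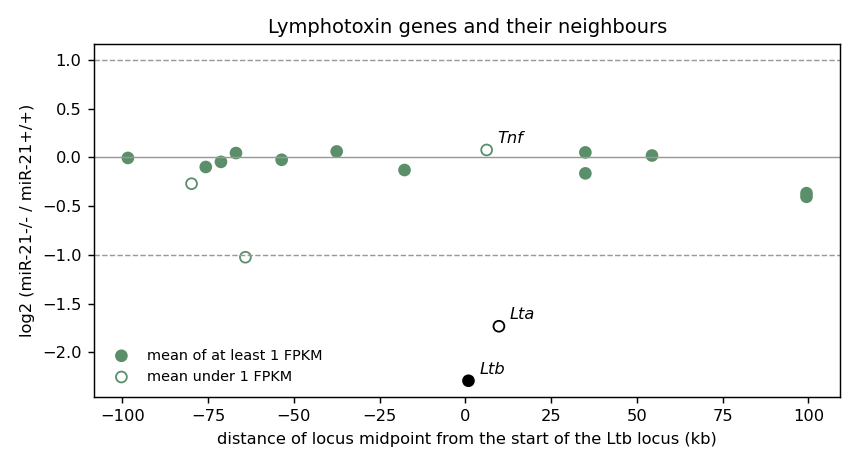
Log2 fold change (*miR-21-/-* over *miR-21+/+*) of named loci within 100 kb of the *Ltb* locus, against the distance of each midpoint from its start in kb. Filled circles have a mean of at least 1 FPKM and open circles less, dashed lines mark 2-fold, and *Ltb* (−2.29) and *Lta* (−1.73) lie below the line on either side of *Tnf* (0.08).

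*Ltbr*, the receptor for this complex, is made by stromal, endothelial and epithelial cells and not by lymphocytes. It lies on chromosome 6 from 125256589 to 125263888, on the minus strand, with 10 exons. Its level was 24.0 FPKM in *miR-21+/+* and 26.8 FPKM in *miR-21-/-* glands, a log2 fold change of 0.15 that became −0.48 when both columns were scaled to equal sums over all loci. The receptor stood at 1.73 times the level of *Ltb* in *miR-21+/+* glands and at 9.45 times in *miR-21-/-* glands.
The proteins that carry its signal were described from a list of 15, which runs from the TRAF adaptors through the kinases *Map3k14* and *Chuk* to the NF-kappaB subunits. All 15 exceeded a mean of 1 FPKM and 0 differed by 2-fold. Their log2 fold changes ran from −0.29 for *Birc3* to 0.22, with a median of −0.05. *Nfkbia*, the inhibitor that holds NF-kappaB in the cytoplasm, was at 41.9 and 39.6 FPKM, and *Rela* at 20.7 and 23.7 FPKM.
Of 7 other ligands and receptors of this family with a mean of 1 FPKM, 2 were at least 2-fold lower in *miR-21-/-* glands and 0 higher, with a median of −0.42, and 4 were lower with equal sums over all loci. *Tnfrsf13c*, the receptor through which BAFF keeps B cells alive, was at 1.94 and 0.367 FPKM (−2.40), and *Cd40*, a costimulatory receptor of B cells and other antigen-presenting cells, at 2.37 and 1.10 FPKM (−1.10). *Tnfrsf1a*, the widely made TNF receptor, was at 54.3 and 67.9 FPKM (0.32), and *Tnfrsf1b* at 11.0 and 8.02 FPKM (−0.46). *Tnfrsf14*, the herpesvirus entry mediator, was at 10.4 and 7.79 FPKM (−0.42). *Tnfsf14*, the other ligand of *Ltbr*, was under the minimum at 0.526 and 0.447 FPKM, and *Cd40lg*, made by activated T cells, at 0.735 and 0.173 FPKM (−2.09). *Tnfsf11*, the RANK ligand, was under it too and higher, at 0.263 and 0.554 FPKM (1.08). Without the minimum, 3 genes of this list were at least 2-fold lower and 1 at least 2-fold higher.

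*Cr2* encodes the complement receptors that bind fragments of C3 on B cells and follicular dendritic cells. It lies on chromosome 1 from 196963005 to 197002909, on the minus strand, with 19 exons. Its level was 1.91 FPKM in *miR-21+/+* and 0.170 FPKM in *miR-21-/-* glands. The ratio was 11.3-fold, a log2 fold change of −3.50, and 4 of the 13305 loci had a lower one. On the log2(FPKM + 1) scale the difference was −1.32.
The adjoining gene *Cr1l*, a complement regulator found on most cells, was at 37.8 and 35.7 FPKM (−0.08). Of 8 partners of *Cr2* and genes of follicular dendritic cells, 2 were at least 2-fold lower and 0 higher, with a median of −0.29, and 4 were lower with equal sums over all loci. One of the lower ones, named after its values were seen, was *Fcer2a*, the low-affinity IgE receptor of B cells and follicular dendritic cells, at 4.77 and 0.597 FPKM (−3.00). *C3*, the source of the ligand, was at 507 and 306 FPKM (−0.73), and *Clu* and *Mfge8*, which follicular dendritic cells share with many other cells, were at 0.26 and 0.61 on the log2 scale.

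Lymphocyte markers were lower together with these genes, and their part in the members' differences was not tested. All 15 T cell markers were lower by 2-fold or more in *miR-21-/-* glands. Their median log2 fold change was −2.21 and their summed level 74.7 FPKM in *miR-21+/+* and 18.0 FPKM in *miR-21-/-* glands. Of 12 B cell markers with a mean of 1 FPKM, 11 were at least 2-fold lower, with a median of −2.93 and summed levels of 74.2 and 20.2 FPKM. The exception was *Blnk*, at 4.32 and 3.55 FPKM. None of the defining markers was at 0 in either genotype.
The members did not all take the same place among these markers. *Ltb* (−2.29) lay inside the range of the T cell markers, −2.74 to −1.29, where 5 of 15 were lower than it. It also lay inside the range of the B cell markers, where 9 of 12 were lower. Its level was 1.61 times that of *Lat*, the T cell adaptor with the highest mean on the list, in *miR-21+/+* and 1.27 times in *miR-21-/-* glands. *Cr2* (−3.50) was lower than each of the 12 B cell markers with that mean. *Glycam1* (−4.88), which lymphocytes do not express, lay below every gene on the lists used here.
Receptors and chemokines of lymphocyte homing were lower as well. Of 11 with a mean of 1 FPKM, 7 were at least 2-fold lower and 0 higher, with a median of −1.28. *Ccr7*, the receptor that brings T cells and dendritic cells into the node, was at 6.98 and 0.817 FPKM (−3.10). The integrin chain *Itgb7*, part of the receptor of *Madcam1*, was at 8.90 and 4.08 FPKM (−1.13), while *Madcam1* was higher. *Itga4* was at 4.11 and 2.73 FPKM (−0.59).
*Cxcl13* and *Ccl19*, chemokines of lymph node stroma that lymphotoxin maintains, were also lower, as was *Ccl21c*. The related *Ccl21a* and *Ccl21b* were not found by name, so no value is given for them. *Cxcl13*, which draws B cells into follicles, was at 9.47 and 2.53 FPKM (−1.90). *Ccl19* was at 5.92 and 1.33 FPKM (−2.16) and *Ccl21c* at 5.02 and 0.667 FPKM (−2.91). Both of these ligands of *Ccr7* are listed at 2 loci each with equal values. The copies are near-identical and reads may have been split among them, which leaves both values uncertain. *Cxcl12*, which stromal cells of most tissues make, was at 90.4 and 98.1 FPKM (0.12).

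**Figure D4:**
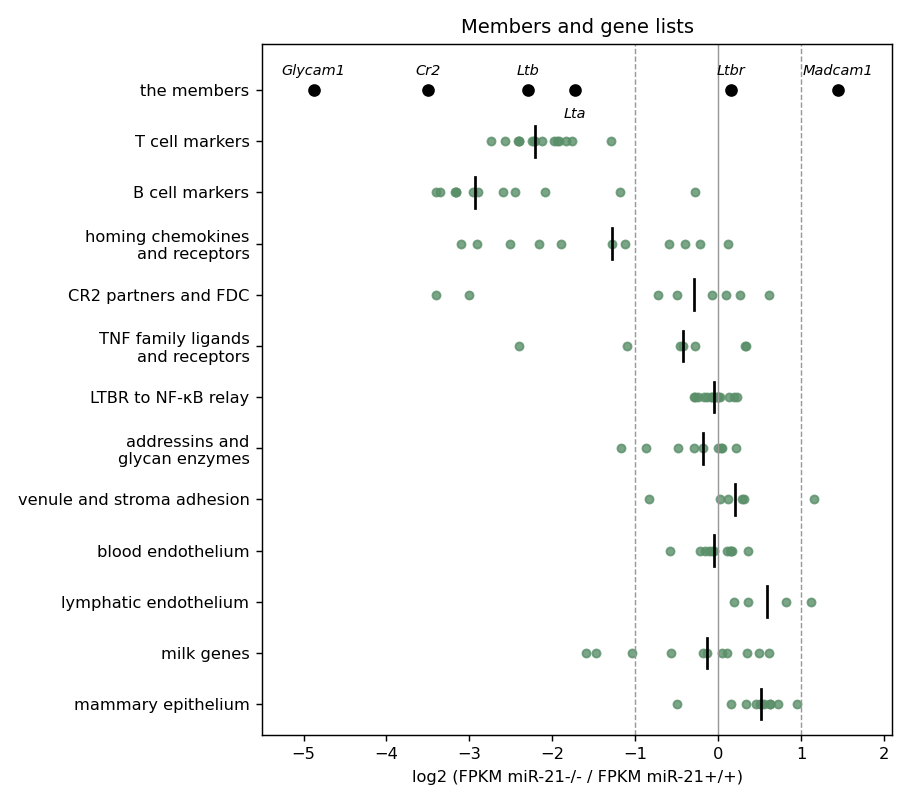
Log2 fold change (*miR-21-/-* over *miR-21+/+*) of 6 members (black, *Chst4* omitted because it is listed at 0) and of the genes of 12 lists with a mean of at least 1 FPKM (green; bars are medians, dashed lines mark 2-fold). *Ltb* (−2.29) lies among the T cell and B cell markers and *Cr2* (−3.50) just beyond the lowest B cell marker, while the NF-kappaB relay and blood endothelium lie around 0, near *Ltbr*.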

How the data were processed

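Poly(A) RNA from 4 mammary glands, 2 per genotype, was sequenced as single-end reads. The authors aligned these to mm9 with TopHat and deposited Cuffdiff output with one FPKM value per genotype. Versions, gene annotation and normalization options are not given in the sources used here. The columns of the authors' own comparison (fold change, test statistic, p-value, q-value, test status) were not used. Read depth is unknown. In a search of low FPKM values for steps of whole reads, 17.6% and 17.4% lay within 0.05 of a multiple at the best unit. An even spread gives 10% at a fixed unit, which is not the same as the best of many units. Each value also combines 2 mice, so the search cannot decide whether steps were present.
Fold changes are plain log2 ratios of FPKM values, unscaled and without a pseudocount. With one value per genotype no model across mice could be run, and a difference counts as 2-fold or not. Lists were described over genes with a mean of at least 1 FPKM, without the members, at the locus of highest mean, and merged loci were left out. This removed *Cd79a*, *Cd81*, *Esam*, *Krt14* and *Darc*. The counting step was tested on simulated data with planted differences well past 2-fold and little noise. This checks the count itself and not how reliable a 2-fold difference is here. Values of 3 genes that the naming rule covers are not reported here.
Members and the 14 lists were chosen with earlier results of these data known. The text names the members, genes of the ligand, homing and addressin lists, the 4 most abundant genes and the most different gene of each other list, flanking loci, and the 2 loci nearest to a member in level; ratios between genes were chosen after their values were seen. Transcripts and 3′ UTRs of the members came from GENCODE vM1 (mm9), by the longest coding transcript of each gene. For the shares over all genes, the longest 3′ UTR of each gene was used instead. Promoters and the microRNA came from RefSeq. Locus starts are given counting from 1. The alternatives were other pseudocounts, scalings, minimums, fold limits and ways to treat repeated or merged loci. Python 3.11.15, numpy 2.4.6, pandas 2.3.3 and matplotlib 3.10.9 were used.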

Additional observations from a re-analysis of the deposited data

How the results depend on the processing

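No paired analysis was possible because the 2 mice of a genotype share 1 deposited value. Leaving out each mouse in turn could not be done either. Read depth is unknown, which limits the precision of values under about 1 FPKM. Alternatives were said to move a fold change when it shifted by more than 1.5-fold, and a count when it differed by more than 1.5 times. Scaling both columns to equal sums over all loci, a shift of −0.631, gave log2 fold changes of −5.51 for *Glycam1*, 0.81 for *Madcam1*, −4.13 for *Cr2*, −2.92 for *Ltb*, −2.36 for *Lta* and −0.48 for *Ltbr*, so *Ltbr* changed sign and 0 members were 2-fold higher. The other 3 scalings moved no member. With a pseudocount of 1 FPKM, *Madcam1* was at 0.70, *Cr2* at −1.32 and *Lta* at −0.46, with 0 members 2-fold higher, and with 0.1 FPKM *Cr2* was at −2.90. Without a minimum 5 members were at least 2-fold lower. No member was higher (0) with a mean of 5 FPKM or at 3-fold, the former because *Madcam1* is not among the genes counted there. *Chst4*, listed at 0, has no ratio to vary. Of 308 counts for the lists under the alternatives, 270 stayed within 1.5 times. With equal sums over all loci, 1 blood endothelial, 1 epithelial and 5 adipocyte markers were at least 2-fold lower, and *Lyve1* and *Lep* were no longer 2-fold higher. Under a minimum mean of 5 FPKM, 2 B cell and 2 T cell markers were counted as lower, since few of them reach it.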

Other observations

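Markers of other tissue components of these glands were also described. Of 4 lymphatic endothelial markers with a mean of 1 FPKM, 1 was at least 2-fold higher in *miR-21-/-* glands and 0 lower. It was *Lyve1*, a hyaluronan receptor of lymphatic vessels and some macrophages, at 19.6 FPKM in *miR-21+/+* and 42.7 FPKM in *miR-21-/-* glands (log2 fold change 1.12). *Pdpn*, a glycoprotein of lymphatic endothelium and of lymph node fibroblasts, was at 8.49 and 10.9 FPKM (0.36). *Prox1* and *Mmrn1*, named after their values were seen, were under the minimum, with *Prox1* at 0.195 and 0.139 FPKM (−0.49) and *Mmrn1* at 0.604 and 0.480 FPKM (−0.33). Of 8 adipocyte markers, 1 was at least 2-fold higher, *Lep* at 27.7 and 67.9 FPKM, and the median was −0.44. Of 10 skeletal muscle markers, 1 was at least 2-fold higher, *Mb* at 2.07 and 7.54 FPKM, and the median was 0.78. The muscle count was 3 with equal sums over named loci, 9 at a fold limit of 1.5 and 0 with a mean of 5 FPKM.

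Loci close to a member in both genotypes were sought in the plane of the 2 log2 FPKM values, which rests on 1 value per genotype. *Glycam1* had no close neighbour, since the nearest locus, *Ucp1* at 43.3 and 8.48 FPKM, lay 1.87 log2 units away. The nearest to *Ltb* were *Ms4a4b* at 12.9 and 2.99 FPKM and *Cd79b* at 12.3 and 2.88 FPKM. The nearest to *Cr2* were *Fbp1* at 1.89 and 0.197 FPKM and *Pax5* at 1.85 and 0.208 FPKM. The nearest to *Madcam1* were *Htra4* at 0.588 and 1.59 FPKM and *Mfsd4* at 0.605 and 1.56 FPKM. The nearest to *Lta* were *Hsh2d* at 0.623 and 0.197 FPKM and *Prf1* at 0.660 and 0.212 FPKM. A locus near *Ltbr* was *Rbpj*, at 23.8 and 26.7 FPKM.

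The chromosomal surroundings of the members were also listed. Within 500 kb of *Glycam1*, *Cr2* and *Chst4*, 0 of 9, 0 of 5 and 0 of 12 loci with a mean of 1 FPKM differed by 2-fold. *Ppp1r1a*, the nearest such locus beside *Glycam1*, was at 40.2 and 25.4 FPKM (−0.66). Around *Madcam1*, 1 of 32 loci was at least 2-fold lower and 3 were at least 2-fold higher. Around *Ltbr*, 2 of 28 loci were at least 2-fold lower and 0 higher, and the lowest of them was the T cell gene *Cd4*, named after its values were seen, at 4.94 and 1.39 FPKM (−1.83).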
